A study of Mus musculus with 6 samples.

Results

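Kruppel-like factors are transcription factors that bind GC-rich and CACCC sequences through zinc fingers at the end of the protein. This account follows 8 of their genes, Klf2, Klf3, Klf4, Klf6, Klf7, Klf10, Klf13 and Klf16, chosen by gene symbol from the 15443 symbols of the table. All 8 had reads in every library and all 8 passed the filter on low values, a mean of at least 5 normalized counts. Marrow from C57BL/6J mice (an inbred laboratory strain, wild type) was cultured for 3 days with FLT3LG at 50 ng/ml, the cytokine that supports the growth of dendritic cells from marrow progenitors. The control group had FLT3LG alone (3 libraries, named control 1, 2 and 4), and the midkine group had recombinant human midkine at 10 ng/ml as well (3 libraries, named midkine 3, 4 and 5). Midkine is a heparin-binding cytokine found at high levels in embryos and in many tumours. The labels do not give the age of the mice, the number of mice behind a library, or whether replicates were separate cultures. The p-values thus reflect the spread among 6 libraries, which may be technical.

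Members of the family act as activators, as repressors or as either, depending on the partner protein. Several are switched on within minutes of a stimulus and are therefore counted among immediate early genes. In blood, Klf2 keeps T cells quiescent and guides their traffic, Klf4 is needed for inflammatory monocytes and for a subset of type 2 conventional dendritic cells, and Klf3 silences genes through the corepressor CtBP. Klf10, Klf13 and Klf16 share a domain that recruits the corepressor Sin3, and Klf10 is known as an early gene of TGF-beta signalling.

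The libraries were made from the 3′ ends of transcripts and held 5985684 to 7233960 reads summed over the 15443 gene symbols. Percents of reads are of these sums, and reads outside these symbols are not counted. Values are counts divided by a size factor for each library (normalized counts). Because each transcript gives about the same yield whatever its length, levels of different genes are set side by side below without division by length. Midkine 5 stood apart from the other libraries. Its first principal component score was 86.0, against −28.2 to 1.94 in the others, and mitochondrial ribosomal RNA took 0.377% of its reads, against 4.12 to 6.16%. Log2 fold changes and their adjusted p-values are therefore given with and without it. In bulk RNA, fewer cells of a type and less RNA per cell cannot be told apart.

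The sequences upstream of Klf2 and Klf4 are shown because both genes are known outputs of the kinase ERK5 and MEF2 transcription factors, while their transcripts lay on opposite sides of control in every midkine library. Both are from RefSeq (GRCm38.p6), each on its gene's own strand and ending before the first annotated base of the gene. Klf2 is chr8:72318812-72319032 on the plus strand (221 bases) and Klf4 is chr4:55532476-55532725 on the minus strand (250 bases). Capitals mark matches to the GC-box letters CCGCCC on either strand and, in Klf2, the MEF2 match.
Klf2: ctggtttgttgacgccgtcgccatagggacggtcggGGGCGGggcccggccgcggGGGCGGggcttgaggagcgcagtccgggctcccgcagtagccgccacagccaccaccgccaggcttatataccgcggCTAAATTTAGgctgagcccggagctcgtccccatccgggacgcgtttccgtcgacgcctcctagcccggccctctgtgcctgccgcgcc
Klf4: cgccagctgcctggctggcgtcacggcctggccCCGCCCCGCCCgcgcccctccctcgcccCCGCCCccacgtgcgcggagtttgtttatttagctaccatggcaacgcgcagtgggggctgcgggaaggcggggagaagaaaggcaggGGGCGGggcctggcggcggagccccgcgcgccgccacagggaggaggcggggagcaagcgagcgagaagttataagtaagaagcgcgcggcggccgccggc

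In Klf2 the MEF2 match, CTAAATTTAG, lies 118 to 109 bases before the RefSeq start and reads the same on both strands. The MEF2 site was searched on both strands in all 32851 promoters of the RefSeq table (300 bases each), and 3.19% held a match. Of the 6 members with an entry there (Klf2, Klf3, Klf4, Klf6, Klf7 and Klf13), Klf2 was the 1 with such a match. The GC-box letters, which overlap each other at 1 place in Klf4, occurred 2 times in the 300 bases of Klf2, 4 times in those of Klf4, 6 times in Klf3, 3 times in Klf13 and once each in Klf6 and Klf7, and in 35.7% of all promoters. The letters CACCC were present 5 times in Klf3, 3 times in Klf7, once each in Klf2 and Klf13, and in 57.5% of all promoters. The letters TGACG, the core of a cyclic AMP response element, were found once each in Klf2, Klf3, Klf4 and Klf13 and in 20.8% of all promoters. No CArG box, the site of serum response factor, was matched in these 6 windows (1.63% of all promoters). A match is a run of letters and not a measured site.

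In control cultures the 8 transcripts spanned a wide range of abundance. Klf6 was the most abundant and made up 53.3% of the summed normalized counts of the 8 genes, followed by Klf13 with 15.2%, Klf4 with 12.4%, Klf3 with 8.02%, Klf7, Klf2 with 2.97%, Klf10 with 0.975% and Klf16 with 0.719%. The 3 control values of each gene did not overlap those of its neighbours in this order. The control libraries were close to each other, with a coefficient of variation between 3.80% for Klf6 and 14.3% for Klf16. In the midkine group Klf7 took the third place and Klf4 and Klf3 the next ones. There the ranges of Klf3 (168 to 572 normalized counts), Klf4 (416 to 576) and Klf7 (563 to 646) overlapped in part. Klf2 (314 to 435) overlapped Klf3 and Klf4, and Klf10 (68.1 to 128) overlapped Klf16 (39.6 to 87.1). Together the 8 genes took 0.111, 0.105 and 0.107% of reads in control 1, 2 and 4, and 0.133, 0.137 and 0.0811% in midkine 3, 4 and 5. The Wilson 95% intervals were 0.130 to 0.136% in midkine 3 and 0.0791 to 0.0832% in midkine 5, and they cover counting error only. The summed share was thus above every control in midkine 3 and 4 and below every control in midkine 5.

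**Figure D1:**
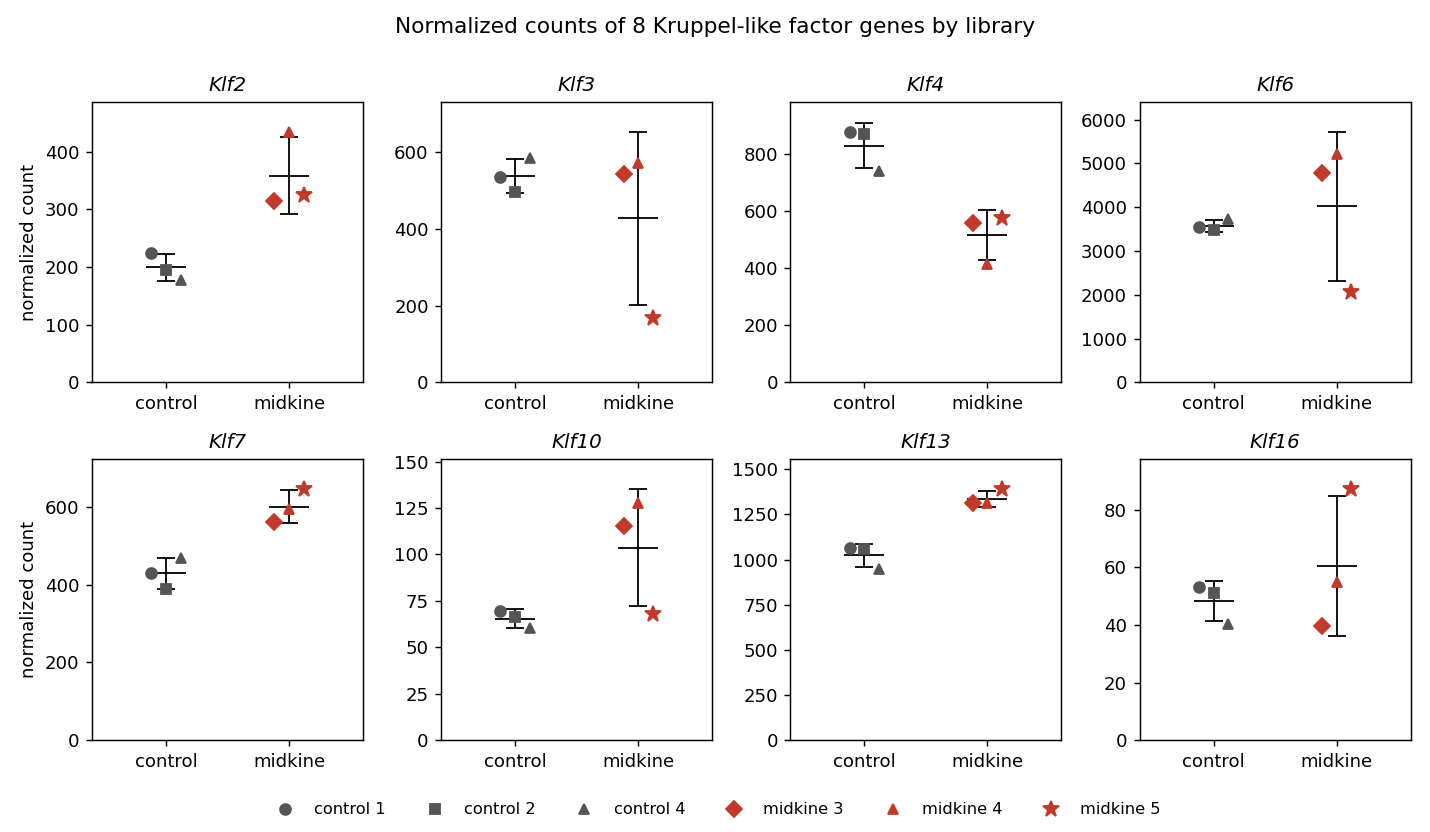
Normalized counts of the 8 genes (y axis, from 0, a separate scale for each gene) in 3 control and 3 midkine libraries. Points are libraries, and the horizontal line and bars are the group mean and SD (n = 3). Klf2, Klf7 and Klf13 lie above, and Klf4 below, every control in all 3 midkine libraries, while midkine 5 (star) lies away from midkine 3 and 4 for Klf3, Klf6, Klf10 and Klf16.

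Klf2 and Klf4, the pair best known from quiescent lymphocytes, endothelium and monocytes, lay on opposite sides of control in all 3 midkine libraries. Klf2 (chromosome 8, 72319033 to 72321656, plus strand, GRCm38) had 225, 195 and 179 normalized counts in control 1, 2 and 4 and 314, 435 and 326 in midkine 3, 4 and 5. The lowest midkine value was above the highest control value, and midkine 4 was the highest. The means were 199 ± 23.3 and 358 ± 66.6 (SD, n = 3 per group), a 1.78-fold higher level with midkine. The log2 fold change of Klf2 was 0.83 ± 0.185 (SE; limma, adjusted p = 0.0890 over all genes), and 0.89 ± 0.147 (adjusted p = 0.000489) without midkine 5.

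Klf4 (chromosome 4, 55527143 to 55532466, minus strand) had 879, 871 and 741 normalized counts in control 1, 2 and 4. In midkine 3, 4 and 5 it had 560, 416 and 576. All midkine values were below all control values, and midkine 4, the library with the highest Klf2, had the lowest Klf4. The means were 830 ± 77.7 and 517 ± 88.2 (SD, n = 3), a 1.62-fold lower level with midkine. The log2 fold change of Klf4 was −0.69 ± 0.175 (limma, adjusted p = 0.111), and −0.78 ± 0.127 (adjusted p = 0.000463) without midkine 5. By DESeq2 on whole reads of all 6 libraries, Klf2 was called higher (adjusted p = 0.0105) and Klf4 lower (adjusted p = 0.0302). These were 2 of 8 members, where DESeq2 called 5.58% of all genes with an adjusted p (3.72% higher and 1.86% lower).

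The ratio of the 2 transcripts within a library does not depend on the scaling between libraries. There were 0.256, 0.224 and 0.241 Klf2 counts for each Klf4 count in control 1, 2 and 4, and 0.561, 1.05 and 0.565 in midkine 3, 4 and 5. The mean ratio was 0.240 ± 0.0157 in control and 0.724 ± 0.278 in midkine libraries (SD, n = 3). In midkine 4 the 2 transcripts were about equally abundant, whereas Klf4 exceeded Klf2 in the other 5 libraries. The ratio was chosen after the values were seen, and since Klf2 was above and Klf4 below every control, it had to separate the groups. It is a description with no test.

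**Figure D2:**
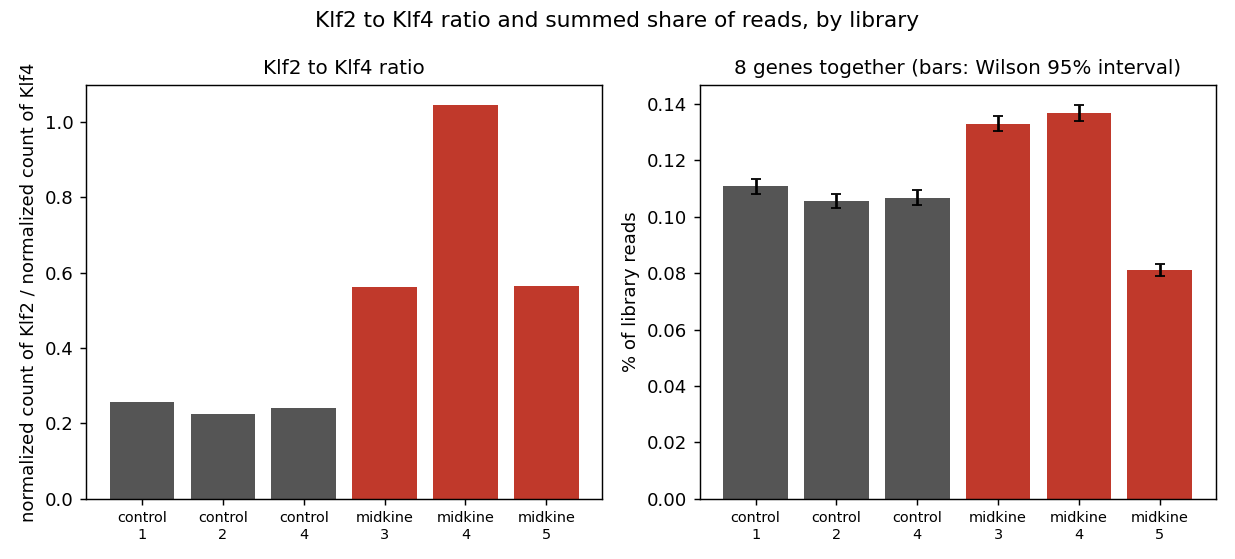
Left, normalized count of Klf2 divided by that of Klf4 in each library (bars from 0). Right, percent of library reads from the 8 genes together, with Wilson 95% intervals. The ratio is between 0.224 and 0.256 in the controls and at least 0.561 in the midkine libraries, and the summed share is lowest in midkine 5.

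Klf7 and Klf13 were above every control in all 3 midkine libraries. Klf7, known from the development of neurons and expressed in many blood cells (chromosome 1, 64029447 to 64122282, minus strand), had 431, 390 and 469 normalized counts in control 1, 2 and 4 and 563, 595 and 646 in midkine 3, 4 and 5. The groups did not overlap, with means of 430 ± 39.9 and 601 ± 42.1 (SD, n = 3). The log2 fold change of Klf7 was 0.49 ± 0.147 (limma, adjusted p = 0.151), and 0.43 ± 0.113 (adjusted p = 0.0124) without midkine 5. Exons of Gm26649, a noncoding gene on the other strand, share 3196 bases with those of Klf7. Gm26649 was not analysed here, and the strand setting of the counting is not given in the sources used here.

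Klf13, an activator of Ccl5 in T cells (chromosome 7, 63886351 to 63938915, minus strand), had 1065, 1057 and 948 normalized counts in control 1, 2 and 4. In midkine 3, 4 and 5 it had 1315, 1311 and 1390, all above the controls. Its means were 1023 ± 65.5 and 1338 ± 44.4 (SD, n = 3), and its log2 fold change was 0.39 ± 0.134 (limma, adjusted p = 0.184) and 0.36 ± 0.0991 (adjusted p = 0.0167) without midkine 5. Relative to the control mean, Klf13 was 0.36, 0.36 and 0.44 higher on the log2 scale in midkine 3, 4 and 5.

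Klf6 and Klf10 were above the controls in midkine 3 and 4 but not in midkine 5. Klf6, a widely expressed factor that is induced in activated macrophages (chromosome 13, 5861482 to 5870394, plus strand), had 3541, 3469 and 3732 normalized counts in control 1, 2 and 4 and 4780, 5209 and 2066 in midkine 3, 4 and 5. Midkine 5 was thus below every control, while midkine 3 and 4 were above every control. The means of 3580 ± 136 and 4019 ± 1705 (SD, n = 3) gave a log2 fold change of 0.06 ± 0.324 (limma, adjusted p = 0.934), which turned to −0.053 with quantile normalization. Without midkine 5 the log2 fold change of Klf6 was 0.48 ± 0.0980 (adjusted p = 0.00247).

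Klf10 (chromosome 15, 38291463 to 38300706, minus strand) had 69.7, 66.5 and 60.2 normalized counts in control 1, 2 and 4 and 115, 128 and 68.1 in midkine 3, 4 and 5. Midkine 5 lay within the control range and the other midkine libraries above it. The means were 65.5 ± 4.87 and 104 ± 31.4 (SD, n = 3), with a log2 fold change of 0.61 ± 0.258 (limma, adjusted p = 0.245), and 0.88 ± 0.170 (adjusted p = 0.00155) without midkine 5.

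Klf3 and Klf16 did not pass in either fit. Klf3 (chromosome 5, 64803388 to 64832901, plus strand) had 534, 497 and 585 normalized counts in control 1, 2 and 4, and 543 and 572 in midkine 3 and 4, within the control range. Midkine 5 had 168. Its difference of −1.67 from the control mean (log2) was the largest of any member in any midkine library, and 4.73% of the 13543 genes tested had a difference at or below it in that library. The log2 fold change of Klf3 was −0.52 ± 0.424 (limma, adjusted p = 0.506) with all libraries and 0.05 ± 0.109 (adjusted p = 0.788) without midkine 5. Gm20033, on the other strand, shares 404 exonic bases with Klf3 and had 0 to 7.26 normalized counts.

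Klf16 (chromosome 10, 80567124 to 80577321, minus strand), the least abundant member, had 53.3, 51.1 and 40.4 normalized counts in control 1, 2 and 4 and 39.6, 54.9 and 87.1 in midkine 3, 4 and 5. Midkine 3 was just below the controls, midkine 4 just above them and midkine 5 well above. Its log2 fold change was 0.26 ± 0.302 (limma, adjusted p = 0.648), and −0.04 ± 0.227 (adjusted p = 0.930) without midkine 5.

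**Figure D3:**
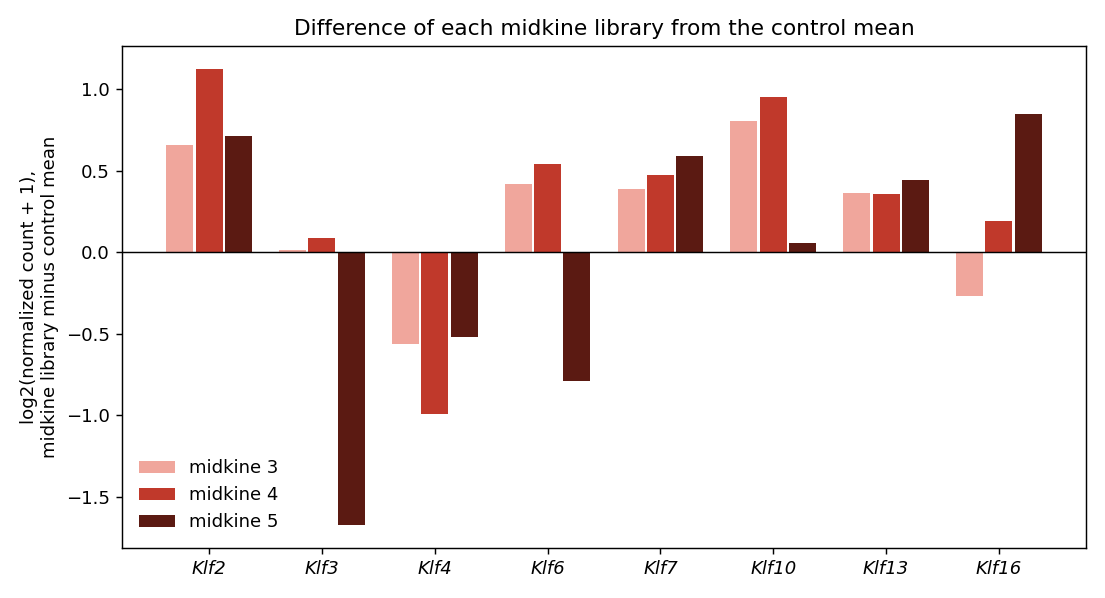
Difference of each midkine library from the control mean in log2(normalized count + 1) (y axis) for the 8 genes. Klf2, Klf7 and Klf13 are positive and Klf4 is negative in all 3 libraries, Klf3 is −1.67 and Klf6 −0.79 in midkine 5 alone, and Klf10 is 0.81 and 0.96 in midkine 3 and 4 but 0.06 in midkine 5.

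Over the 8 genes, the groups did not overlap for 4, of which 3 were higher and 1 lower with midkine. Of all 13543 genes tested, 30.8% did not overlap (15.5% higher and 15.3% lower). With all 6 libraries limma called 0 of 8 members and 0.0% of all genes, although 5 members had an unadjusted p under 0.05, as did 2663 of all genes. On whole reads edgeR called 0 of 8 members and 0.0738% of all genes. Without midkine 5, limma called 6 of 8 members and 18.4% of all genes. Of the 6, Klf2, Klf6, Klf7, Klf10 and Klf13 were higher (9.86% of all genes were) and Klf4 was lower (8.53%). With the same 5 libraries edgeR and DESeq2 each called 6 of 8 members, where edgeR called 20.2% and DESeq2 14.9% of all genes. With array weights on all 6 libraries, limma called 6 of 8 members and 37.5% of all genes. The median log2 fold change was 0.32 over the members and −0.0040 over all genes tested. The median size of change, whatever its sign, was 0.50 for members and 0.32 for all genes with all libraries, and 0.46 and 0.26 without midkine 5. The members were proposed with results of these libraries known, so these counts describe them and single nothing out.

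**Figure D4:**
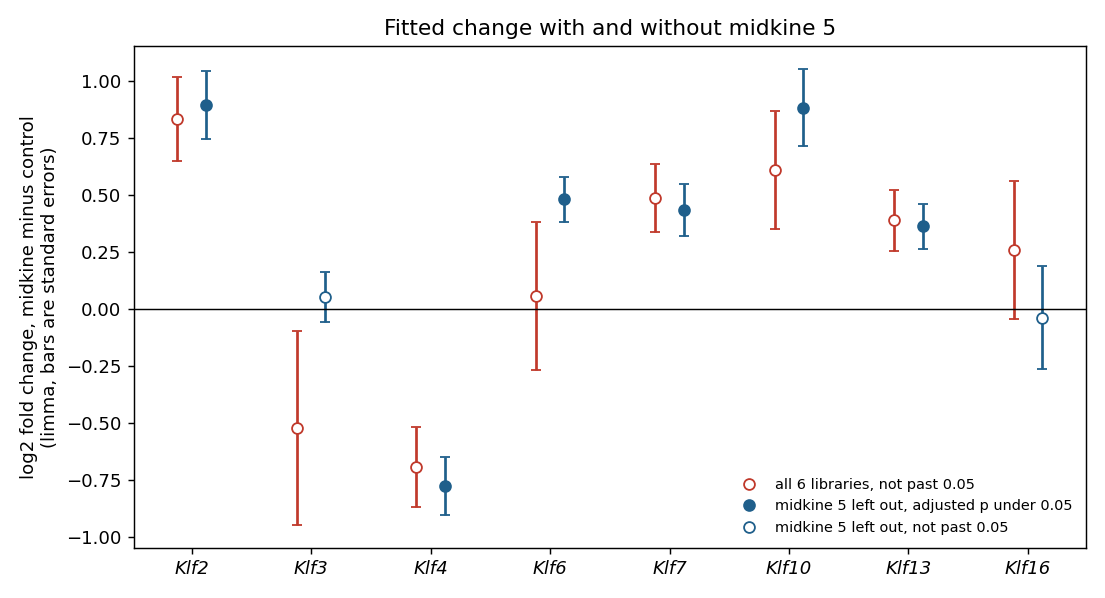
Log2 fold change with its standard error (limma, y axis) for the 8 genes, with all 6 libraries (red) and with midkine 5 left out (blue). Filled points have an adjusted p under 0.05. No red point is filled, and in blue Klf2, Klf4, Klf6, Klf7, Klf10 and Klf13 are filled.

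The other family members with values had at most 97.1 normalized counts in any library. The means of Klf9 (55.3 in control, 86.3 with midkine) were above those of the member Klf16 (48.3 and 60.6). Of 9 further Kruppel-like factor genes, Klf5, Klf8, Klf9, Klf11 and Klf12 had values, and 4 were tested. Klf1, Klf14, Klf15 and Klf17 were not analysed here. Klf9, a glucocorticoid-responsive member, had 63.6, 46.0 and 56.2 normalized counts in control 1, 2 and 4 and 80.2, 97.1 and 81.7 in midkine 3, 4 and 5, with no overlap (limma log2 fold change 0.64, adjusted p = 0.163; 0.68 and adjusted p = 0.0235 without midkine 5). Klf8, a gene known to be repressed by Klf3, had 26.7, 25.6 and 35.5 in control and 17.4, 20.1 and 19.1 in midkine libraries, all below the controls (limma log2 fold change −0.60, adjusted p = 0.246; −0.60 and adjusted p = 0.153 without midkine 5). Klf5 and Klf11 overlapped between the groups, and Klf12 had at most 8.18 normalized counts and was listed at 0 in midkine 4 and 5. Of the related Sp factors, which bind the same GC-rich sites, Sp1 to Sp4 had values (Sp5 to Sp9 were not analysed here), and 0 of the 4 passed in either limma fit. Sp2 did not overlap between the groups, with 110 to 125 normalized counts in control and 130 to 144 in midkine libraries. For comparison, 15.5% of all genes tested were higher and 15.3% lower without overlap. Limma without midkine 5 called 9.86% of all genes higher and 8.53% lower.

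Among 14 cofactors and ubiquitin ligases of the family, 2 were higher and 2 lower without overlap, and 0 passed limma with all libraries. Without midkine 5, 3 were called higher and 0 lower. The shares of all genes were 15.5% higher and 15.3% lower without overlap, and 9.86% higher and 8.53% lower by limma without midkine 5. Ctbp1, the corepressor bound by Klf3, had 737, 767 and 730 normalized counts in control 1, 2 and 4 and 888, 1012 and 1683 in midkine 3, 4 and 5. Sin3b and Sin3a both encode forms of Sin3, the corepressor recruited by Klf10, Klf13 and Klf16. Sin3b had 715 to 868 in control and 972, 1101 and 1939 in midkine 3, 4 and 5. Sin3a went the other way, with 333 to 343 in control and 330, 247 and 181 in midkine 3, 4 and 5. Hdac2, a histone deacetylase of the same complex, had 445 to 491 in control. In midkine libraries its mean was 339 ± 83.8 (SD, n = 3), and it was lowest in midkine 5 with 242. For these 4 genes midkine 5 was the library farthest from the controls. The third gene called without midkine 5 was Wwp1, a ubiquitin ligase known to mark Klf2 and Klf5, with 618 to 862 in control, 1079 and 1317 in midkine 3 and 4 and 432 in midkine 5 (named after its values were seen).

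In the ERK5 and MEF2 branch upstream of Klf2 and Klf4, 0 of 7 genes passed limma with all libraries, and 1 was higher and 1 lower without overlap. Mapk7, which encodes ERK5, had 81.0, 75.7 and 93.7 normalized counts in control 1, 2 and 4 and 106, 109 and 127 in midkine 3, 4 and 5 (limma log2 fold change 0.45, adjusted p = 0.229; 0.37 and adjusted p = 0.140 without midkine 5). Mef2c, a MEF2 factor of lymphoid and dendritic cells, had 2455, 2620 and 2259 in control and 2136, 1610 and 1141 in midkine libraries (log2 fold change −0.63, adjusted p = 0.195; −0.40 and adjusted p = 0.0247 without midkine 5). Mapk7 was thus higher and Mef2c lower in every midkine library. Without midkine 5, 1 of the 7 was called higher (Mef2a, named after its values were seen, with a limma log2 fold change of 0.39 and adjusted p = 0.0106, against 0.10 and adjusted p = 0.830 with all libraries) and 1 lower. The median log2 fold change of the list was 0.10. Over all genes, 15.5% were higher and 15.3% lower without overlap, and limma without midkine 5 called 9.86% higher and 8.53% lower.

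Of 10 genes of the TGF-beta branch around Klf10, 2 were higher and 1 lower without overlap, and 0 passed limma with all libraries. Tgif1, a repressor that restrains SMAD activity, had 109, 94.1 and 120 normalized counts in control 1, 2 and 4 and 185, 205 and 271 in midkine 3, 4 and 5 (limma log2 fold change 1.01, adjusted p = 0.0788; 0.85 and adjusted p = 0.000835 without midkine 5). Tgfbr2, the type 2 receptor, had 106 to 147 in control, 206 and 225 in midkine 3 and 4 and 137 in midkine 5. Like Klf10, Tgfbr2 was above every control in midkine 3 and 4 and within the control range in midkine 5. A link between these genes was not tested. Ski, a SMAD corepressor, had 345 to 390 and 419 to 471, and Smad4, the shared SMAD, had 327 to 366 and 301 to 311. Without midkine 5, 3 of the 10 were called higher (Tgif1, Tgfbr1 and Tgfbr2) and 0 lower. The shares of all genes were 15.5% higher and 15.3% lower without overlap, and 9.86% higher and 8.53% lower by limma without midkine 5.

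Of 13 genes known as targets of these factors, 12 had values (Nos3 was not analysed here), 0 passed limma with all libraries, and 2 were higher and 0 lower without overlap. Lgals3, reported to be repressed by Klf3, had 5464 to 5966 normalized counts in control and 8982, 10573 and 12953 in midkine 3, 4 and 5 (limma log2 fold change 0.91, adjusted p = 0.0788; 0.77 and adjusted p = 0.000124 without midkine 5). Cd14, a monocyte gene, had 113, 72.6 and 127 in control 1, 2 and 4 and 145, 246 and 295 in midkine 3, 4 and 5 (limma log2 fold change 1.10, adjusted p = 0.135; 0.89 and adjusted p = 0.0103 without midkine 5). Ccl5, the chemokine that Klf13 activates, had 136 to 215 in control and 81.2, 106 and 152 in midkine 3, 4 and 5 (limma log2 fold change −0.71, adjusted p = 0.217; −0.95 and adjusted p = 0.00175 without midkine 5). Its midkine mean was thus below its control mean, whereas that of Klf13 was above. Lgals3 was above every control in midkine 3, 4 and 5, while Klf3 was below the controls in midkine 5 alone. Ccnd1, a cyclin, had 3166 to 3228 in control and 1712, 1826 and 3360 in midkine 3, 4 and 5. S1pr1, the lymphocyte exit receptor that Klf2 activates, was named after its values were seen. It had 135 to 149 in control. Midkine 3 and 4 had 253 and 281, and midkine 5 had 132. Klf2 was above every control in midkine 3, 4 and 5. Whether any of these targets changed through the Kruppel-like factors was not tested. Without midkine 5, 3 targets were called higher (Lgals3, Cd14 and S1pr1) and 3 lower (Itgb7, Ccnd1 and Ccl5). Over all genes, 15.5% were higher and 15.3% lower without overlap, and limma without midkine 5 called 9.86% higher and 8.53% lower.

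Of 16 immediate early genes, the class to which several of the 8 belong, 15 were tested and 8 were higher and 0 lower without overlap. None passed limma with all libraries, and 10 were called higher and 0 lower without midkine 5. The shares of all genes were 15.5% higher and 15.3% lower without overlap, and 9.86% higher and 8.53% lower by limma without midkine 5. Nr4a1, an orphan nuclear receptor, had 11.3, 23.5 and 15.8 normalized counts in control 1, 2 and 4 and 46.4, 57.0 and 63.5 in midkine 3, 4 and 5 (limma log2 fold change 1.71, adjusted p = 0.0788; 1.61 and adjusted p = 0.00146 without midkine 5). Zfp36, an RNA-binding protein that speeds mRNA decay, had 569 to 768 and 998, 1101 and 1008. Junb had 715 to 886 and 1158, 1358 and 1308, and Dusp1 103 to 152 and 404, 657 and 575. The log2 fold change of Dusp1 was 2.10 with all libraries (limma, adjusted p = 0.0523). It passed there by edgeR (adjusted p = 0.0474) and DESeq2 (adjusted p = 2.78e-11), which called 0.0738% and 5.58% of all genes. DESeq2 with all libraries also called Nr4a1, Zfp36 and Junb higher. The median log2 fold change of the list was 0.41, or 0.56 without midkine 5. The 7 tested genes that overlapped differed in midkine 5 (named after their values were seen). Fos (553), Jund (577), Atf3 (131) and Egr3 (30.0) were below every control there. Jun and Fosl2 were above every control in that library, and Egr1 was within the control range.

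Klf2 and Klf4 had the smallest unadjusted p (limma) among the members higher and lower with midkine. Genes were compared with them by their profile over the libraries, each gene centred on its own mean. Those with a profile over the 6 libraries most like that of Klf2 were Rab38, a small GTPase of lysosome-related organelles (root-mean-square distance 0.0291 on the log2 scale), Eaf1, a transcription elongation factor (0.0698), and Hadh, an enzyme of fatty acid oxidation (0.0715), of 10127 genes compared. Rab38 had 28.7, 24.5 and 23.7 normalized counts in control 1, 2 and 4 and 40.6, 58.1 and 43.6 in midkine 3, 4 and 5, with the same highest library as Klf2. Those most like Klf4 were Rad51ap1, a DNA repair factor (0.0642), Tespa1, a signalling protein of thymocytes (0.0693), and Bcl2, an inhibitor of apoptosis (0.0748). Rad51ap1 had 222, 223 and 198 in control and 153, 118 and 146 in midkine libraries. The likeness includes the difference between the groups and is a description. It also includes counting error, which is large at the low counts of Rab38, so the order of the genes is uncertain.

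Markers of several cell types differed between the groups. Over all genes tested, 15.5% were higher and 15.3% lower without overlap. Summed over 9 genes, monocyte and macrophage markers had 13147 to 14271 normalized counts in control and 18415 to 20677 in midkine libraries, and 6 of 9 were higher without overlap. The 8 neutrophil markers had 121987 to 135709 and 173501 to 183305, with 6 of 8 higher. Most of that sum was S100a8 (means of 66659 in control and 84484 with midkine) and S100a9 (39939 and 63253). Elane, which overlapped, had 238 to 308 in control, 555 and 447 in midkine 3 and 4 and 168 in midkine 5. The 9 dendritic cell markers, among them Flt3 and Zbtb46, had 8827 to 10349 and 4578 to 9212, with 6 of 9 lower. Most of this sum was Cd74 (means of 4438 in control and 3392 with midkine) and H2-Ab1 (3128 and 2463). The lowest sum was that of midkine 5, and midkine 3 lay within the control range. Cd74, which overlapped, had 4021 to 4851 in control and 4948, 3841 and 1387 in midkine 3, 4 and 5. The 6 B cell markers had 1168 to 1645 and 1206 to 2694, with 2 of 6 higher. The 5 erythroid markers with values had 51.3 to 84.9 and 114 to 192, with 1 of 5 higher, and the 7 of stroma and endothelium 1074 to 1233 and 884 to 1550, with 1 of the 6 tested lower. The 3 T cell markers with values (Cd3d, Lck and Cd8a) had 57.2 to 70.6 and 39.1 to 49.3, with 1 of 3 lower, and Cd3d had at most 9.20 in any library. Cd3e, Cd3g, Cd247, Alas2 and Tek were not analysed here, and no marker with a value was listed at 0. The part of these cell types in the values of the 8 genes was not tested.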

How the data were processed

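The authors deposited 1 table of size-factor-scaled counts (a signal, at least 0) with 15443 gene symbols and 6 libraries. Per the labels' protocols these are 3′ end libraries (QuantSeq, forward). Mapping with TopHat2 2.0.10 and Bowtie 1.0.0, SAMtools 0.1.19, HTSeq, DESeq2, FastQC 0.11.0 and the build GRCm38 (mm10) stand in the submitters' processing notes. The annotation and strand setting of the counting: not given in the sources used here. All values (100%) were whole reads over a size factor (0.947 to 1.10; tolerance 0.01 reads). A floor of 3 reads is at most 5.01e-05% of a library; floors and Wilson 95% intervals cover counting error only.

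The main test was limma 3.58.1 (R 4.3.3, eBayes with trend, two-sided) on log2(normalized count + 1), which understates changes of low genes. Genes with a mean under 5 were left out. P-values were adjusted by Benjamini-Hochberg over all 13543 genes tested (threshold 0.05). Whole reads went to edgeR 4.0.16 (quasi-likelihood with TMM) and DESeq2 1.42.0. Alternatives changed pseudocount, filter, scaling, variance moderation and libraries. Tests were tried on simulated counts in which no library stood apart. That trial thus cannot show how the tests behave with a library like midkine 5. The members and lists were chosen with earlier results of these data known. Up to 4 genes per list were named by smallest p, others where stated. Profile likeness used genes with a mean of at least 20, without Gm and Rik models. Coordinates are from GENCODE M21 and promoters from RefSeq.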

Additional observations from a re-analysis of the deposited data

How the results depend on the processing

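No paired analysis was possible because the groups share only replicate number 4. With all 6 libraries, limma called 0 of the 8 members, as did edgeR, both other pseudocounts, both other filters, quantile and total-count scaling and eBayes without trend. DESeq2 called 2 (5.58% of all genes) and limma with array weights 6 (37.5%). Leaving out 1 library at a time, limma called 0 to 6, and the 6 came without midkine 5, where edgeR and DESeq2 (added after the data were seen) also called 6 each (20.2% and 14.9% of all genes). The number of calls thus depended on midkine 5 and on the method, and with midkine 5 left out the midkine group has 2 libraries. Log2 fold changes past the threshold under another setting were as follows. With array weights they were 1.02 for Klf2, −0.94 for Klf4, 0.50 for Klf6, 0.45 for Klf7, 0.90 for Klf10 and 0.35 for Klf13. With DESeq2 they were 0.84 for Klf2 and −0.68 for Klf4. With edgeR leaving out midkine 5 they were 0.90 for Klf2, −0.77 for Klf4, 0.48 for Klf6, 0.42 for Klf7, 0.89 for Klf10 and 0.36 for Klf13. With DESeq2 leaving out midkine 5 they were 0.91, −0.76, 0.49, 0.44, 0.90 and 0.37. Leaving out 1 library at a time, limma gave 0.69 to 0.92 for Klf2, −0.78 to −0.54 for Klf4, 0.42 to 0.55 for Klf7, 0.43 to 0.88 for Klf10 and 0.33 to 0.42 for Klf13. The direction of Klf3, Klf6 and Klf16 turned with the libraries used. Klf3 ranged from −0.83 to 0.053 over those fits, and was 0.041 with array weights, 0.045 with edgeR and 0.056 with DESeq2 leaving out midkine 5. Klf6 ranged from −0.19 (without midkine 4; −0.13 without midkine 3) to 0.48, and was −0.053 with quantile normalization. Klf16 ranged from −0.039 to 0.52, and was −0.040 with edgeR and −0.027 with DESeq2 leaving out midkine 5. The causes were not tested. Counting error limits Klf10 and Klf16 most, the latter with 41 to 96 reads a library.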
